A study of Mus musculus with 10 samples.

Results

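The genes of adenosine signalling and turnover were compared between 2 regions of the mouse nucleus accumbens, the ventral part of the striatum: its lateral and its medial shell. The 8 genes were taken by symbol from the 20483 genes of the expression table: the receptor genes Adora1, Adora2a and Adora2b, the enzyme genes Nt5e, Ada and Adk, and the transporter genes Slc29a1 and Slc29a2. All 8 were found. Each region had 5 libraries, named in the labels as biological replicates 1 to 5, and all came from mice labelled wild type. Neither group had a treatment, transgene or deletion in its labels, and for strain, age and number of animals the sources used here give nothing. The tissue was taken with Geo-seq, which cuts small pieces out of a section by laser capture and amplifies their RNA, so a library holds every cell type of the piece although its label reads neural cell. Nothing states that each library came from its own animal, and p-values then measure only the spread between these libraries, which may be technical. The series asks how subregions of the nucleus accumbens differ in reward processing.

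Adenosine is a neuromodulator that builds up outside cells as ATP is used or released. Ectoenzymes on the cell surface strip phosphates from ATP, and the last step, from AMP to adenosine, is made by CD73, the product of Nt5e. Equilibrative transporters then let adenosine cross the membrane along its gradient, and adenosine kinase or adenosine deaminase removes it inside. In the striatum the receptor encoded by Adora2a is known as a marker of the spiny projection neurons that also carry the dopamine receptor Drd2. It raises cyclic AMP through the G protein subunit encoded by Gnal, which opposes the action of Drd2 and is blocked by caffeine. The receptor encoded by Adora1 couples to inhibitory G proteins and is found on many neurons and nerve endings.

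Values are TPM, transcript abundances scaled for gene length and library total, so levels of different genes can be set side by side. Library depth is unknown, because TPM does not keep it. Each library listed 15402 to 17003 genes above 0, and mitochondrially encoded genes took 23.5% to 35.3% of its TPM. The gene AY036118 was near 0 in lateral replicate 5 (1.38 TPM) and medial replicate 2 (1.42 TPM). In every other library it was at 82500 to 144263 TPM. The TPM of a library sum to 1000000, so the share of this gene bears on the values of all others. An estimate without both libraries near 0 for AY036118 is given beside each result that this moved by over 1.5 times. The exception is Adora2b, which then could not be tested. All 9 genes of a list of striatal neuron genes, among them Penk, Ppp1r1b and Tac1, were above 0 in every library, with a summed level of 3343 to 5405 TPM in lateral and 3352 to 5192 TPM in medial libraries. Of 6 listed genes of cortical excitatory neurons, 2 were measured, with summed levels of 6.01 to 12.8 TPM in lateral and 0.415 to 5.98 TPM in medial libraries.

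No gene among the 8 differed detectably between the regions. In the model fitted over all 15596 genes with at least 1 TPM in at least 5 of the 10 libraries, 7 of the 8 were tested, and 0 had a limma adjusted p under 0.05, where 1.48% of all tested genes did (0.385% higher in lateral and 1.1% higher in medial libraries). An unadjusted limma p under 0.05 was also reached by 0 of the 7, beside 15.4% of all tested genes. The values of the regions overlapped for each of the 7, and 4.25% of all tested genes had values that did not overlap. Shares of this size give few or no such genes among 7, so the counts of 0 do not set these genes apart. Fold changes are log2 differences, lateral mean less medial mean, of log2(TPM + 1), and so understate the change of genes at low levels. The log2 fold change was negative for 5 and positive for 2 of the 7 genes, where 68.7% of all tested genes were lower in lateral. The median was -0.12 for the 7, beside a median of -0.21 over all tested genes. That background moved to 0.00 with quantile normalization and to -0.02 with median-ratio scaling, so small differences of either sign depend on how libraries were scaled. Limma adjusted p-values of the 7 genes ran from 0.448 to 0.978. In captured tissue, fewer cells of a type and less RNA per cell cannot be told apart.

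The levels of the 8 genes spanned a wide range that both regions shared. Averaged over the 10 libraries, Adora2a stood at 146 TPM, above 97.4% of all genes in the table, and was higher than Adora1 (35.2 TPM) in 10 of 10 libraries. Adora1 exceeded Adk (24.0 TPM) in 8 of 10 libraries, so the order of this pair was not fixed. Adk exceeded Slc29a1 (9.55 TPM) in 10 of 10. Slc29a1, Nt5e (7.08 TPM) and Slc29a2 (6.17 TPM) lay close together: Slc29a1 was above Nt5e in 7 of 10 libraries and Nt5e above Slc29a2 in 7 of 10, which leaves their order within the spread. Adora2b and Ada came last, each listed at 0 in 4 of the 10 libraries. The receptor that marks one class of spiny neuron was thus the most abundant transcript of the group. Adora2b exceeded Ada in 6 of 10 libraries, so their order was within the spread.

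**Figure D1:**
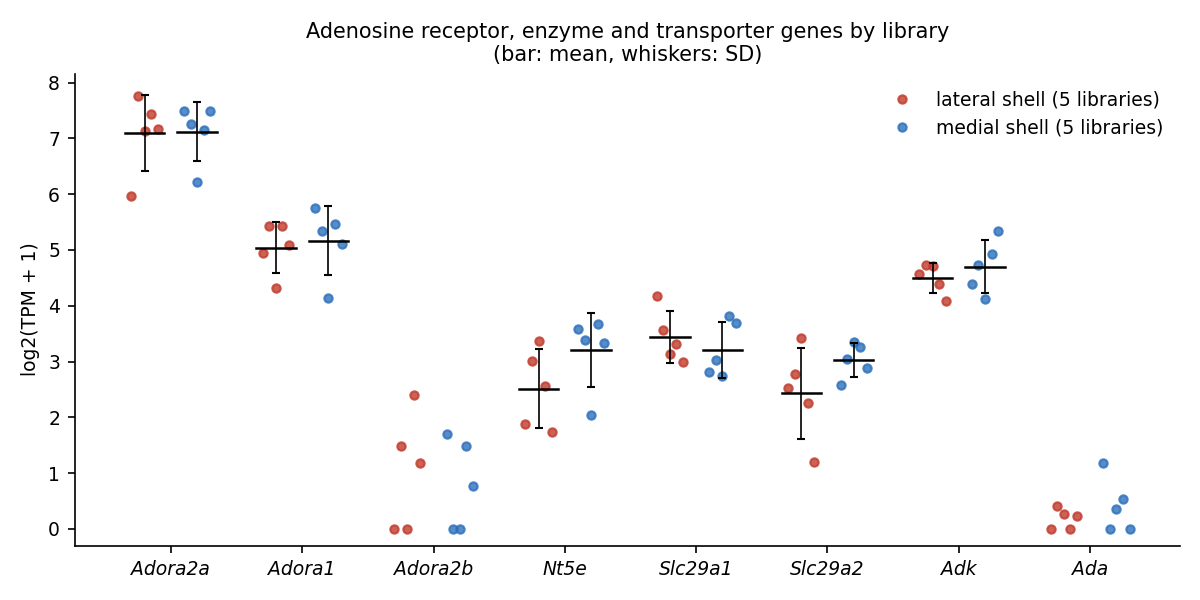
Level of each of the 8 genes in each library, on a log2(TPM + 1) axis, with lateral shell libraries in red and medial shell libraries in blue. Bars give the mean and whiskers the SD of 5 libraries, left out for Adora2b and Ada, which are listed at 0 in some libraries. The colours overlap for every gene, and Adora2a lies highest, with 1 low library in each region.

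Adora2a (ENSMUSG00000020178.6) lies on chromosome 10, 75316877 to 75334784, plus strand, in the mouse build GRCm38. Its level in lateral replicates 1 to 5 was 61.7, 216, 139, 173 and 143 TPM. In medial replicates 1 to 5 it was 179, 152, 73.0, 142 and 179 TPM. Lateral replicate 1 and medial replicate 3 were the low libraries, and the other 8 all lay above 138 TPM. The means were 147 ± 56.7 TPM (SD, n = 5) in lateral and 145 ± 43.4 TPM (SD, n = 5) in medial libraries. Lateral differed from medial by -0.03 log2 (SE 0.32, limma adjusted p = 0.978). Its 95% interval of -0.72 to 0.66 corresponds to a lateral level between 0.609 and 1.58 times the medial one on this scale, so a moderate difference in either direction remains possible. Its sign turned with the scaling between libraries and with single libraries left out (-0.25 to 0.25 over fits without 1 library), and it was -0.01 without both libraries near 0 for AY036118.

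Adora1 (ENSMUSG00000042429.8; chromosome 1, 134199223 to 134235431, minus strand) stood at 29.6, 42.3, 18.9, 41.9 and 33.0 TPM in lateral replicates 1 to 5. The medial values were 53.0, 39.5, 16.7, 43.4 and 33.5 TPM. Medial replicate 3 and lateral replicate 3 were lowest, and the ranges of the regions overlapped broadly. For Adora1 the estimate was -0.12 log2 (standard error 0.30, 95% interval -0.78 to 0.53, limma adjusted p = 0.882), and it was positive under quantile normalization, under median-ratio scaling and without lateral replicate 3 or medial replicate 1. The gene Mybph overlaps Adora1 on the other strand, but it was not analysed here.

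Adora2b (ENSMUSG00000018500.2; chromosome 11, 62248984 to 62266453, plus strand) encodes the low-affinity receptor that, like that of Adora2a, raises cyclic AMP. It was listed at 0, 1.82, 0, 4.27 and 1.28 TPM in lateral replicates 1 to 5. In medial replicates it was listed at 2.25, 0, 0, 1.81 and 0.702 TPM. Only 5 of the 10 libraries reached 1 TPM, the least that admits a gene to the test, and a listed 0 is not taken as absence, since 20 of the 4272 genes averaging 20 TPM or more were also listed at 0 in a library. The log2 fold change of 0.22 had a 95% interval of -1.05 to 1.497 (limma adjusted p = 0.890), the widest among the 7 tested genes. Without both libraries near 0 for AY036118, one of which is lateral replicate 5 at 1.28 TPM, Adora2b was not tested. How far that would move its estimate is thus not given. Adora2a made up 67.5% to 88.0% of the summed TPM of the 3 receptor genes in lateral libraries and 75.9% to 84.0% in medial libraries. The remaining receptor gene, Adora3, was not analysed here.

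Nt5e (ENSMUSG00000032420.8; chromosome 9, 88327197 to 88372092, plus strand) had the largest estimated difference of the 7 tested genes in the fit to all libraries. That rank was not fixed: Slc29a2 had the larger estimate without lateral replicate 1 (-0.61 against -0.54) or medial replicate 1 (-0.70 against -0.60), and Slc29a1 (0.46) and Adora2b (0.44) did with quantile normalization (-0.39 for Nt5e). Its lateral values were 2.69, 7.08, 9.31, 4.89 and 2.33 TPM in replicates 1 to 5. Its medial values were 11.0, 9.51, 3.13, 11.8 and 9.04 TPM. In 4 of 5 medial libraries Nt5e was at 9.04 TPM or more, a level that 1 of 5 lateral libraries reached, while medial replicate 3 lay among the low lateral ones. The means were 5.26 ± 2.96 TPM (SD, n = 5) in lateral and 8.90 ± 3.41 TPM (SD, n = 5) in medial libraries. The log2 fold change of -0.70 (standard error 0.41, 95% interval -1.58 to 0.19) had an unadjusted limma p of 0.113. It missed the threshold over all genes (limma adjusted p = 0.448). It was negative in all 23 settings tried, at -0.98 to -0.39, with adjusted p from 0.262 to 0.759. Without both libraries near 0 for AY036118 it was -0.45 (adjusted p = 0.738).

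Transport across the membrane was represented by both equilibrative nucleoside transporters. Slc29a1 (ENSMUSG00000023942.15; chromosome 17, 45585200 to 45599606, minus strand), the gene of ENT1, was at 17.2, 10.9, 7.82, 8.95 and 6.98 TPM in lateral replicates 1 to 5. In medial replicates it was at 5.99, 7.14, 5.68, 13.1 and 11.9 TPM. Lateral replicate 1 had the highest value, and the rest of the lateral libraries fell inside the medial range. Its log2 fold change came to 0.23 (standard error 0.32, 95% interval -0.46 to 0.91, limma adjusted p = 0.776). Without lateral replicate 1 it was 0.042 (adjusted p = 0.966), and with quantile normalization or median-ratio scaling it was 0.46 or 0.42. Lateral replicate 1 also had the highest summed level of 9 endothelial and mural genes, such as Cldn5 and Ly6c1, at 413 TPM, against 182 to 399 TPM in the other lateral libraries and 201 to 337 TPM in medial ones. Medial replicate 3 had the highest medial sum (337 TPM) and the lowest Slc29a1 (5.68 TPM). Medial replicate 4 had the lowest medial sum (201 TPM) and the highest medial Slc29a1 (13.1 TPM). The part of such cells in the Slc29a1 value was not tested. An antisense gene, Gm17080, overlaps Slc29a1 and was not analysed here.

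Slc29a2 (ENSMUSG00000024891.6; chromosome 19, 5023860 to 5031972, plus strand), the gene of ENT2, was at 4.76, 5.87, 9.66, 3.78 and 1.29 TPM in lateral replicates 1 to 5. The medial values of Slc29a2 were 4.97, 7.25, 9.15, 8.57 and 6.42 TPM. Under 6 TPM lay 4 lateral libraries, and 4 medial libraries lay above it, but lateral replicate 3 was the highest of all. The means were 5.07 ± 3.07 TPM (SD, n = 5) and 7.27 ± 1.68 TPM (SD, n = 5). This gave a log2 fold change of -0.59 (standard error 0.39, 95% interval -1.42 to 0.25, limma adjusted p = 0.504). Without both libraries near 0 for AY036118, one of which is lateral replicate 5 at 1.29 TPM, it was -0.27 (adjusted p = 0.813).

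Inside the cell, adenosine kinase returns adenosine to AMP, and in the adult brain it is known chiefly from astrocytes. Adk (ENSMUSG00000039197.10; chromosome 14, 21052574 to 21448569, plus strand) was at 22.7, 25.5, 25.1, 20.01 and 16.0 TPM in lateral replicates 1 to 5. In medial replicates it was at 19.96, 25.4, 16.3, 29.4 and 39.4 TPM. Medial replicate 5 was the highest, and the lateral libraries all lay within the medial range except lateral replicate 5, just under it. The estimate for Adk was -0.20 log2 (standard error 0.25, 95% interval -0.73 to 0.33, limma adjusted p = 0.741), and it was 0.0027 under median-ratio scaling, -0.04 without medial replicate 5 and -0.09 without both libraries near 0 for AY036118. A list of 10 astrocyte genes, among them Aldoc, Slc1a2 and Slc1a3, was summed in each library. The sums were 844 to 1208 TPM in lateral and 1022 to 1366 TPM in medial libraries, and no gene was at 0 in every library. Of the 10 genes, 8 were lower in lateral (median log2 fold change -0.37), where 68.7% of all tested genes were lower (median -0.21). Medial replicate 5 had the highest astrocyte sum of all. Medial replicate 3 had the next highest medial sum (1166 TPM) but the lowest medial Adk (16.3 TPM). The part of astrocytes in the Adk value was not tested.

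Ada (ENSMUSG00000017697.3; chromosome 2, 163726584 to 163750239, minus strand), the gene of the deaminase that turns adenosine into inosine, reached 1 TPM in 1 of 10 libraries and so did not enter the main test. Fitted without a filter, over 19967 genes, Ada had a log2 fold change of -0.23 (limma adjusted p = 0.769). It was listed at 0, 0.329, 0.198, 0 and 0.173 TPM in lateral replicates 1 to 5. In medial replicates Ada was listed at 1.27, 0, 0.279, 0.451 and 0 TPM. At such levels a difference between the regions was not detectable.

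A quotient of the TPM of 2 genes within a library does not depend on how the libraries are scaled against each other, and 4 of them were compared. The tests used differences of log2(TPM + 1), in which the added 1 pulls quotients of low genes towards 0. The quotient of Slc29a1 over Slc29a2 TPM had a median of 2.37 in lateral libraries (0.810 to 5.41) and of 1.21 in medial libraries (0.621 to 1.85). On the log2(TPM + 1) scale the regions differed by 0.82, with means of 1.01 ± 0.83 and 0.19 ± 0.54 (SD, n = 5 each; two-sided exact permutation p = 0.111, or 0.365 when adjusted over the 4 quotients). With 0.1 or 5 in place of the 1, that difference was 0.99 or 0.49. In 4 lateral libraries the TPM quotient exceeded that of every medial one, while lateral replicate 3 lay below all but medial replicate 3. The quotient of Adk over Nt5e, which sets an enzyme that removes adenosine against one that forms it, had medians of 4.09 (2.70 to 8.46) in lateral and 2.67 (1.81 to 5.21) in medial libraries. That difference was 0.49 on the log2(TPM + 1) scale (two-sided exact permutation p = 0.183, adjusted p = 0.365), and 0.60 or 0.26 with 0.1 or 5 added.

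Both quotients of Adora2a differed between the regions by less than their spread. Adora2a over Drd2 had medians of 1.24 (1.06 to 1.45) in lateral and 1.36 (1.06 to 1.83) in medial libraries, a difference of -0.13 on the log2(TPM + 1) scale (two-sided exact permutation p = 0.476, adjusted p = 0.635) that was -0.06 without both libraries near 0 for AY036118. In 10 of 10 libraries Adora2a was the more abundant of the pair. Adora2a over Adora1 had medians of 4.31 (2.08 to 7.35) and 3.83 (3.27 to 5.35), a difference of 0.10 (two-sided exact permutation p = 0.762, adjusted p = 0.762) that was -0.09 without lateral replicate 3. With 5 libraries in each group the smallest p such a test can give is 0.00794.

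**Figure D2:**
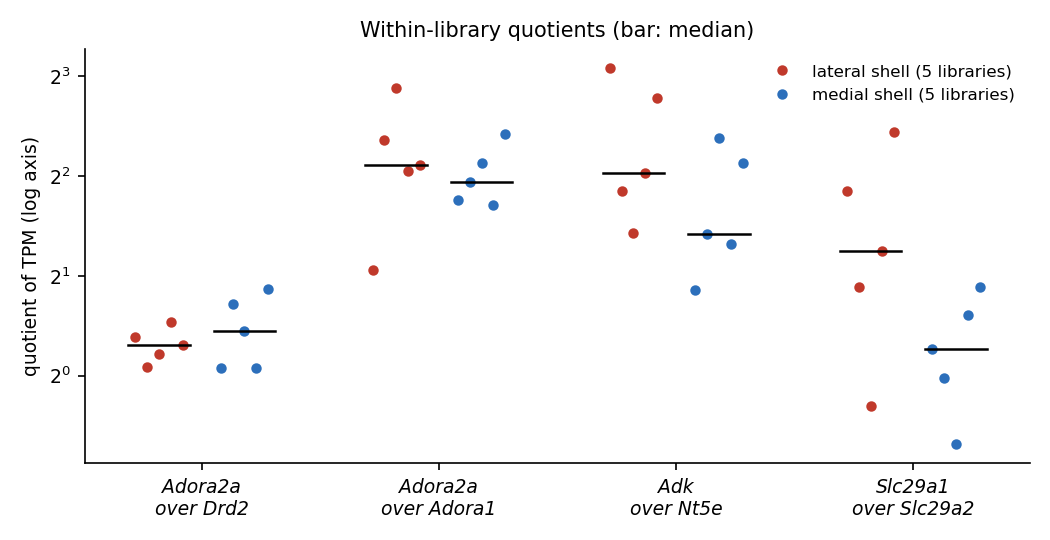
Quotient of the TPM of 2 genes within each library, on a log axis, for lateral (red) and medial (blue) shell libraries, with a bar at the median of 5. Adora2a over Drd2 stays between 1.06 and 1.83 in all libraries, and Slc29a1 over Slc29a2 reaches 5.41 in lateral and 1.85 in medial libraries.

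Libraries low in Adora2a were also low in Drd2, whichever region they came from. Drd2 was at 47.1 TPM in lateral replicate 1 and 53.5 TPM in medial replicate 3, and at 92.0 to 204 TPM in the other 8. Gpr6, another gene of the Drd2 neurons, was at 64.1 and 70.1 TPM in those libraries and at 166 TPM or more in the rest. Drd1, the receptor gene of the other class of spiny neurons, was at 139 TPM in lateral replicate 1 and at 85.2 TPM in medial replicate 3, within a range of 76.0 to 155 TPM over the 10 libraries. Drd1 was thus not low in the first of these libraries, while in the other it was the lowest medial value. The summed level of 6 genes of Drd2 neurons was 1330 TPM in lateral replicate 1 and 1845 TPM in medial replicate 3, and 2248 to 3543 TPM in the others. Penk alone gave 1207 and 1687 TPM of the first 2 sums. Between the regions 2 of the 6 genes were higher and 4 lower in lateral, where 68.7% of all tested genes were lower. Of the 6, 1 was called, beside 1.48% of all tested genes. That gene, Upb1, was at 1.54 ± 1.29 against 22.2 ± 14.1 TPM (log2 fold change -3.09, limma adjusted p = 0.0130), without overlap. Lateral replicate 1 and medial replicate 3 stood apart in further measures. Lateral replicate 1 had the fewest genes at 1 TPM or more (14261, against 14526 to 15882 in the others), the highest oligodendrocyte and endothelial sums of all (719 and 413 TPM) and the highest lateral astrocyte sum (1208 TPM). Medial replicate 3 had the most genes at 1 TPM or more (15882) and the highest medial microglia and endothelial sums (432 and 337 TPM). The part of these measures, and of Drd2 neurons, in the level of Adora2a was not tested.

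Over the 10 libraries, Adora2a and Drd2 had a Pearson r of 0.91 (permutation p = 0.00256, adjusted p = 0.00768 over 3 relations) and a Spearman rho of 0.64 (permutation p = 0.0542, adjusted p = 0.0814) on the log2(TPM + 1) scale. About the means of the regions r was 0.91. Without lateral replicate 1 and medial replicate 3, the libraries farthest from the median of Adora2a, r was 0.59 over 8 libraries (exact permutation p = 0.143, adjusted p = 0.178), so the relation rests on those libraries. Adora2a and Adora1 had an r of 0.62 (permutation p = 0.0621, adjusted p = 0.0932) and a rho of 0.66 (permutation p = 0.0440, adjusted p = 0.0814), and without the same libraries r was 0.49. Adora2a and Drd1 had an r of 0.21 (permutation p = 0.546, adjusted p = 0.546) and a rho of 0.55 (permutation p = 0.106, adjusted p = 0.106). Without the same libraries that r was 0.67 (exact permutation p = 0.0662, adjusted p = 0.178). These relations were chosen after the values were seen.

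**Figure D3:**
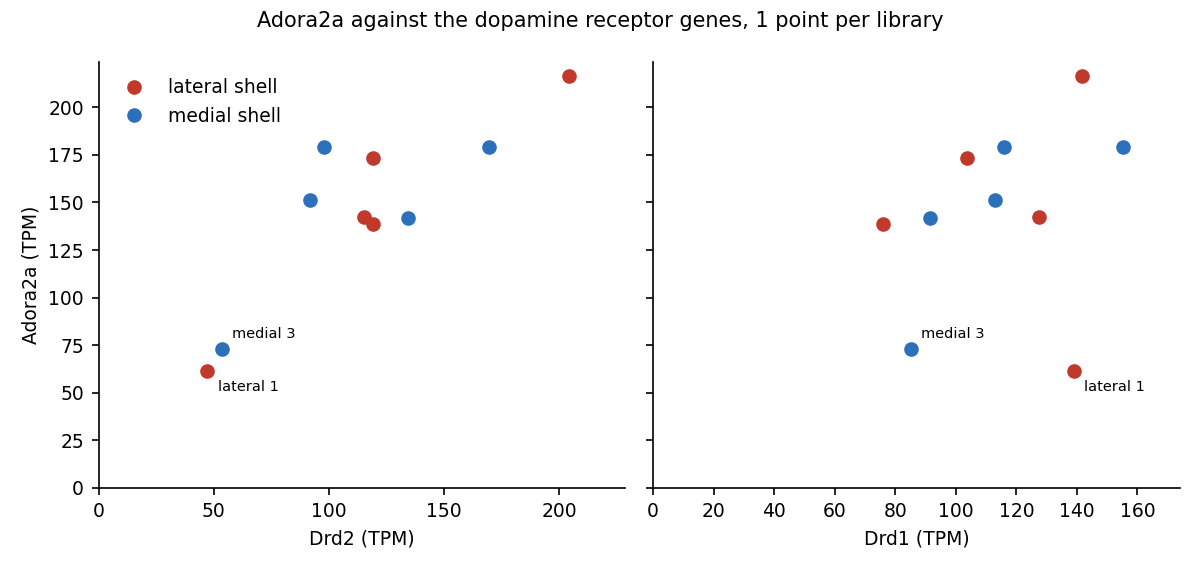
Adora2a against Drd2 (left) and against Drd1 (right), in TPM, with 1 point for each library, lateral in red and medial in blue. Lateral replicate 1 and medial replicate 3 are low for Adora2a and Drd2, while for Drd1 lateral replicate 1 is at 139 TPM and medial replicate 3, at 85.2 TPM, is the lowest medial library.

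The genes whose levels followed each of the 7 tested genes most closely over the 10 libraries were found by Pearson correlation on the log2(TPM + 1) scale among all tested genes. For Adora2a these were Kazn (r = 0.95), Trpm4 (r = 0.94) and Tbc1d8 (r = 0.93). Drd2 ranked 7 among the 15595 other genes, where the median r was 0.04. Adora1 was followed by Tmod1 (r = 0.95), the gene of the actin-capping protein tropomodulin, then by Dnajc16 (r = 0.88) and Cep76 (r = 0.88). Nt5e was followed by Gpatch8 (r = 0.94), Adk by Picalm (r = 0.96), Slc29a1 by Plod3 (r = 0.94) and Slc29a2 by Dus3l (r = 0.97). For Adora2b the highest r was 0.91. Each is the highest of many values over few libraries, and all genes of a library share its depth and quality. Each is given as a description.

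The other genes of purine handling gave 0 calls in all 4 lists, beside 1.48% of all tested genes. Of 5 tested genes for the breakdown of ATP and AMP outside the cell, 2 had higher and 3 lower lateral values, with a median log2 fold change of -0.06. Entpd1, the gene of CD39, which takes ATP down to AMP and so supplies CD73, was at 6.77, 8.25, 11.4, 8.04 and 3.63 TPM in lateral replicates 1 to 5. In medial replicates Entpd1 was at 2.35, 3.44, 3.69, 0.562 and 2.97 TPM. Only lateral replicate 5 lay inside the medial range. Entpd1 had a log2 fold change of 1.29 (SE 0.39), which did not pass (limma adjusted p = 0.142, 0.0781 to 0.241 over 22 settings). Entpd2 and Entpd3, whose products also act on ATP and ADP outside cells, were at 7.02 ± 9.98 against 7.47 ± 6.33 TPM (log2 fold change -0.64, limma adjusted p = 0.699) and at 16.2 ± 5.95 against 16.5 ± 5.67 TPM (-0.06, adjusted p = 0.952), and were added after their values were seen. Enpp2, known as autotaxin and chiefly for making lysophosphatidic acid, was at 15.5 ± 9.77 against 7.88 ± 4.00 TPM (limma adjusted p = 0.391). Enpp2 is also known from oligodendrocytes, the myelin-forming cells. Of 9 oligodendrocyte genes such as Mobp and Mag, 8 were higher on average in lateral libraries (median log2 fold change 0.91) and 0 passed over all genes, with summed levels of 195 to 719 TPM in lateral and 80.6 to 342 TPM in medial libraries. The part of oligodendrocytes in the Enpp2 value was not tested. Alpl, tissue-nonspecific alkaline phosphatase, which can also act on AMP, was at 4.02 ± 2.45 against 7.95 ± 5.14 TPM (adjusted p = 0.524).

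Of 6 tested genes for other purine receptors, 3 were higher and 3 lower in lateral libraries, at a median of 0.08. P2ry13, a receptor gene for ADP, was at 7.21, 17.9, 9.96, 12.4 and 10.1 TPM in lateral replicates 1 to 5. In medial replicates P2ry13 was at 7.80, 0.870, 4.93, 3.87 and 2.33 TPM. Lateral replicate 1 lay under medial replicate 1, and all other lateral libraries lay above every medial one. P2ry13 had a log2 fold change of 1.46 (SE 0.41, limma adjusted p = 0.104, 0.0513 to 0.271 over 23 settings). P2ry12, the ADP receptor gene used as a marker of microglia, was at 20.1 to 22.5 TPM in lateral libraries and at 11.4, 11.99, 24.5, 12.2 and 9.75 TPM in medial replicates 1 to 5 (log2 fold change 0.66, limma adjusted p = 0.219). P2ry1, a further ADP receptor gene, was at 11.7 ± 6.39 against 16.6 ± 4.19 TPM (limma adjusted p = 0.468). Entpd1, P2ry12 and P2ry13 are known as microglial genes in the brain. All 10 genes of a microglia list, P2ry12 among them, were higher on average in lateral libraries (median log2 fold change 0.91). None was at 0 in any library, and summed levels were 426 to 666 TPM in lateral and 202 to 432 TPM in medial libraries. Of the 10, 3 passed over all genes, beside 1.48% of all tested genes. They were C1qa (log2 fold change 1.07, limma adjusted p = 0.0350), Tmem119 (1.52, adjusted p = 0.0381) and Ctss (1.14, adjusted p = 0.0388). Ctss overlapped between the regions, at 58.5 TPM in its lowest lateral and 58.9 TPM in its highest medial library. These calls were not followed through the other settings. An unadjusted limma p under 0.05 was reached by 9 of the 10 microglia genes, beside 15.4% of all tested genes. Medial replicate 3, the medial library with the highest P2ry12, had the highest microglia sum of the medial libraries. The part of microglia in the values of Entpd1, P2ry12 and P2ry13 was not tested.

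Inside the cell, 5 of 19 tested genes of adenosine and purine turnover were higher and 14 lower in lateral libraries. Over all tested genes 68.7% were lower. The median of the 19 was -0.19, close to that of all genes. The smallest p belonged to Ak1, an adenylate kinase (62.4 ± 14.4 against 79.9 ± 6.35 TPM, limma adjusted p = 0.322). The nucleotidase genes Nt5c (30.8 ± 5.79 against 44.6 ± 12.5 TPM, adjusted p = 0.331) and Nt5c2 (5.85 ± 2.17 against 10.2 ± 3.85 TPM, adjusted p = 0.339), and Ahcyl1 (84.1 ± 7.63 against 67.5 ± 11.6 TPM, adjusted p = 0.347), a relative of the hydrolase that frees adenosine from S-adenosylhomocysteine, followed in the limma fit. Of 4 tested genes for other nucleoside transporters and ATP release, 2 lay on each side (median -0.10). Slc29a3, the gene of a transporter of lysosomes, was at 3.78 to 6.05 TPM in lateral and 0.279 to 4.58 TPM in medial libraries (limma adjusted p = 0.335). Its log2 fold change of 0.88 went to 0.48 without both libraries near 0 for AY036118 and to 0.56 without medial replicate 2 alone. Panx1, a channel gene linked to ATP release, was at 6.34 ± 2.61 against 10.2 ± 4.62 TPM (adjusted p = 0.509).

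**Figure D4:**
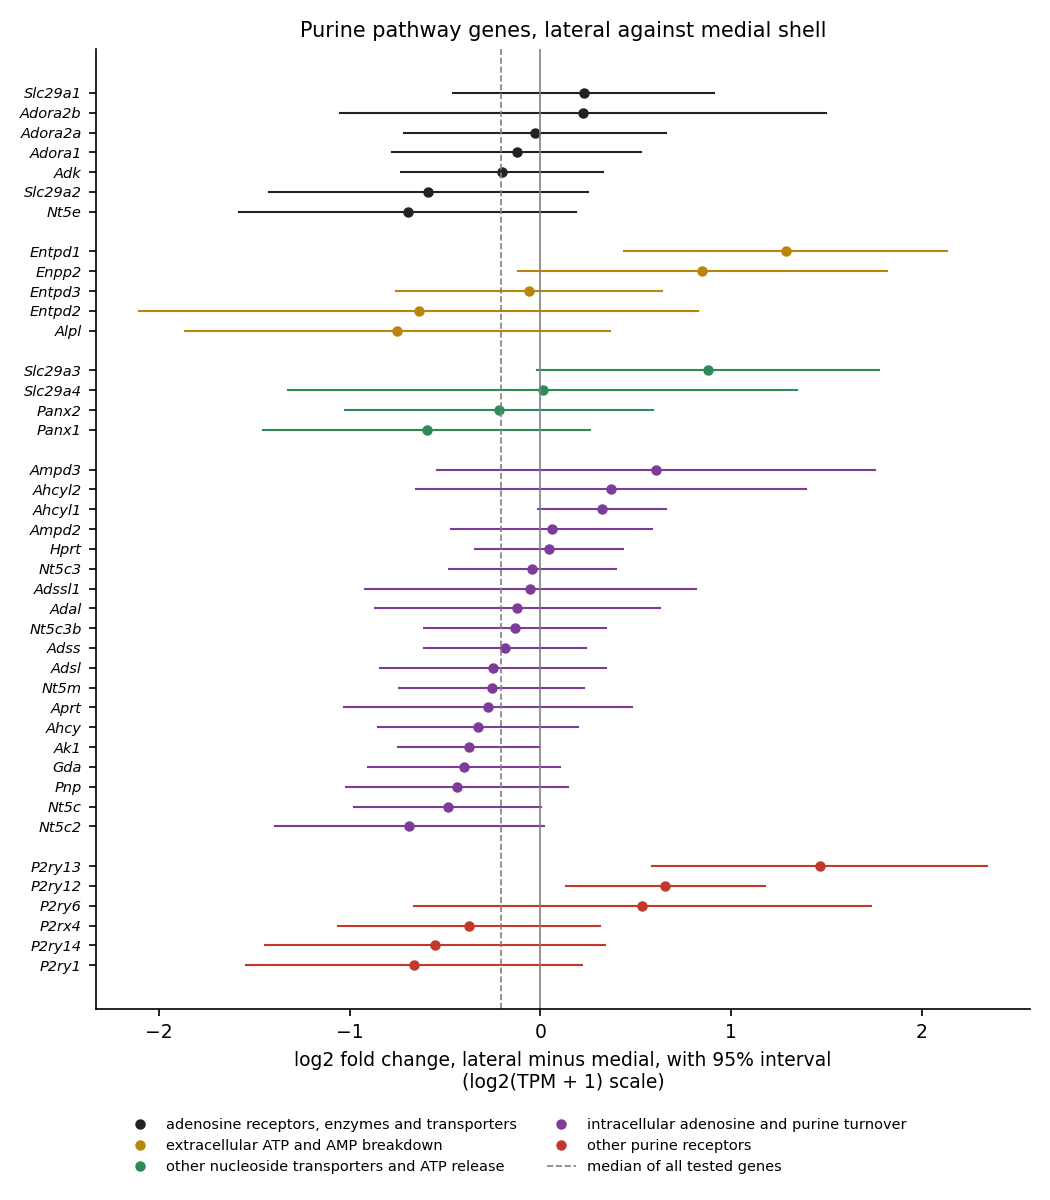
Difference of mean log2(TPM + 1), lateral less medial, with its 95% interval, for each tested gene of adenosine and purine handling, grouped by role. The solid line marks 0 and the dashed line the median of all tested genes (-0.21); Entpd1, P2ry13 and P2ry12 have intervals above 0 and Ak1 one below 0, and none of the 4 passed over all genes.

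The list of signalling partners of the adenosine receptors also holds other receptor genes (Drd1, Drd2, Grm5 and Cnr1). Of its 16 tested genes 0 passed the threshold, with 8 higher and 8 lower in lateral (median 0.01). An unadjusted limma p under 0.05 was reached by 5 of the 16, beside 15.4% of all tested genes. Cnr1, the cannabinoid receptor gene of many striatal neurons, was at 38.7, 38.2, 15.8, 32.9 and 19.6 TPM in lateral replicates 1 to 5. In medial replicates Cnr1 was at 15.6, 4.89, 25.6, 11.8 and 11.8 TPM. Cnr1 had a log2 fold change of 1.08 (SE 0.38, limma adjusted p = 0.191). Adcy5, the main adenylyl cyclase gene of striatal neurons, on which Adora2a and Drd2 act in opposite directions, was at 184 ± 35.6 against 131 ± 25.2 TPM (limma adjusted p = 0.203, with an estimate of 0.49 log2). Ppp1r1b, the gene of DARPP-32, a target of cyclic AMP signalling, was at 820 ± 166 against 604 ± 148 TPM (adjusted p = 0.288), and Ric8b, a chaperone gene for the Gnal protein, at 48.4 ± 2.42 against 64.2 ± 12.5 TPM (adjusted p = 0.290). Drd2 itself was at 121 ± 55.8 against 109 ± 44.1 TPM (adjusted p = 0.919, with an estimate of 0.10 log2), and the sign of its log2 fold change turned without lateral replicate 2 or medial replicate 3 and was 0.05 without both libraries near 0 for AY036118.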

How the data were processed

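The authors deposited 1 table of TPM for 20483 genes by symbol, with 1 column for each of the 10 libraries, and each column sums to 1000000. For its making, the tools listed in the submitters' processing notes are featureCounts 1.6.3, StringTie 1.3.4, HISAT2 2.1.0 and fastp 0.20.0, on mouse GRCm38 (mm10), with no roles stated. Annotation and strand use: not given in the sources used here. Coordinates and overlaps came from GENCODE M21 on GRCm38, which holds all 20483 symbols.

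The regions were compared on log2(TPM + 1) with limma 3.58.1 (R 4.3.3), with a mean-variance trend, over genes of at least 1 TPM in at least 5 libraries, and p-values were adjusted by Benjamini-Hochberg over all 15596. Quotients and relations used permutation tests in scipy 1.17.1 or written out in full. The tests were checked on simulated data. Named genes are the 8 members, Drd2, up to 4 genes of smallest p in each pathway list, up to 3 abundant markers and the closest followers of each tested member, of which the text gives part. The called markers Upb1, Tmem119, C1qa and Ctss were added after their values were seen. The members, lists and rules were chosen with earlier results of these data known. Of the listed markers, 2 are not reported here and were left out of their lists. Alternatives changed the pseudocount, filter, scaling, variance model, replicate block and libraries.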

Additional observations from a re-analysis of the deposited data

Results flagged for a closer look

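In 8 groups of 5 libraries, 1 value lay far from the others, and in each case the library was lateral replicate 1, lateral replicate 2 or medial replicate 3. Lateral replicate 1 was the lowest lateral library for Gpr6 (64.1 TPM, with a gap to the next of 0.93 of the group's range), for Penk (1207 TPM, gap 0.736) and for the summed level of 6 genes of Drd2 neurons (1330 TPM, gap 0.762). It was the highest for the summed genes of ATP and AMP breakdown outside the cell (85.1 TPM, gap 0.712). Medial replicate 3 was the lowest medial library for Kazn (9.50 TPM, gap 0.85) and for the sum of the 8 adenosine genes (124 TPM, gap 0.746), and the highest for P2ry12 (24.5 TPM, gap 0.831). Lateral replicate 2 was the highest for the summed receptor partners (3451 TPM, gap 0.904). The 116 groups examined were those of 40 genes, 4 quotients and 14 list sums, some of which share genes, in each region, and chance alone gives about 1 in 20, or 5.8 here. The selection of genes was widened after the values were seen.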

How the results depend on the processing

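None of the 8 genes passed the threshold in any of the 23 settings in which they were fitted, the smallest adjusted p being 0.262, for Nt5e without medial replicate 3. Signs near 0 turned. Adora1 was at a log2 fold change of 0.021 with quantile normalization and 0.081 with median-ratio scaling. Adora2a was at 0.042 and 0.18 under those scalings, 0.047 after rescaling without mitochondrial and haemoglobin genes and 0.10 with sample weights. Adk was at 0.0027 under median-ratio scaling. Ada, tested only without a filter (adjusted p = 0.769), was at -0.61 with a pseudocount of 0.1, against -0.23. Without 1 library at a time, Adora1 ran from -0.38 to 0.058, Adora2a from -0.25 to 0.25 and Drd2 from -0.13 to 0.40. Slc29a1 ran from 0.042 to 0.38, Adk from -0.35 to -0.041 and the quotient of Adora2a over Adora1 from -0.093 to 0.35. Adora2b ran from 0.026 to 0.48, but only over fits that kept all 5 libraries in which it reached 1 TPM. Over all genes 60 were called higher in lateral and 171 in medial, and 23 to 69 and 56 to 188 without 1 library. The counts were 88 and 82 with median-ratio scaling, 86 and 100 with quantile normalization, and 34 and 111 without a mean-variance trend. With a pseudocount of 0.1 there were 107 in medial. Without both libraries near 0 for AY036118, chosen after seeing the data, they were 12 and 31, in a fit of fewer samples. Libraries of the same replicate number were not alike in their deviations from the group means (correlations -0.05 to 0.04, and 0 of 5 libraries closest to their own number). Such values cannot tell whether libraries of the same number came from the same animal. The replicate block gave 19 and 45 calls, and no call among the 8 genes or the 4 quotients changed; for quotients its sign-flip test cannot go under 0.0625. Adora2b was not tested with a filter of 5 TPM or without some libraries. Apart from the cause that fewer samples or genes give, the cause of these changes was not tested. Depth is unknown from TPM, so the precision of Ada and Adora2b cannot be stated.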
